A study of Mus musculus with 6 samples.

Results

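The 10 genes described here are regulators of the ATF4 and CHOP stress response, taken by gene name: Atf4, Ddit3, Trib3, Chac1, Atf3, Atf5, Ppp1r15a, Sesn2, Nupr1 and Gdf15. They matched 11 of the 54532 rows of the count table. The additional row is a further Ensembl entry for Ddit3 (ENSMUSG00000116429) with 0 counts in every library, so each gene is represented by 1 row, and all 10 passed the filter on low counts. The 6 RNA libraries came from mouse macrophages grown in culture out of bone marrow, from C57BL/6 animals aged 32 to 34 weeks. The 3 XKO samples (Xbp1ΔMf) lacked Xbp1 in macrophages by their label, and the 3 XWT samples (Xbp1FL/FL) carried the floxed alleles. Both groups were primed with lipopolysaccharide (LPS) and then held for 48 h in medium conditioned by wild-type primary hepatocytes. No group went without priming or without the medium, so the levels below describe stimulated cells only. The driver of the deletion is not stated in the labels. Nor do they say that replicates were different animals or cultures, so each p-value reflects only how these 6 libraries scatter, and that scatter may be technical.

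The integrated stress response begins when kinases that sense stress, among them the endoplasmic reticulum (ER) sensor PERK, phosphorylate the translation factor eIF2. General protein synthesis then slows while translation of the Atf4 messenger increases, and the ATF4 protein switches on genes of amino acid supply and a set of further regulators. Ddit3 encodes CHOP, a transcription factor that acts beside ATF4. XBP1, the factor deleted here, belongs to a separate branch of the unfolded protein response that is driven by the sensor IRE1. The comparison asks how macrophages labelled as Xbp1-deleted differ in the messenger RNA of these regulators. RNA counts do not show how much ATF4 or CHOP protein was made.

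Letters of known response elements in the promoters are shown first, because the genes are usually grouped by the elements that ATF4 and CHOP bind. RefSeq promoter windows (GRCm38.p6, 250 bases before to 50 after each start site) were found for all 10 genes, 12 windows in all. The composite element shared by C/EBP and ATF factors was searched as TGATGNAA, which reads TTNCATCA on the other strand, and it was present for 4 of the 10 genes, against 4.51% of 27025 genes with a window. The cyclic AMP response element TGACGTCA was present for 1 gene, Ppp1r15a, against 2.03% of genes. The XBP1 and ATF6 element TGACGTGG (0.714% of genes) and the ER stress element (0.137% of genes), each also on both strands, were found for 0 of the 10. No match of one element overlapped that of another in these windows. The genes were chosen as regulators of this response, so their shares beside those of all genes describe the group and were not tested. A match is a run of letters and not a measured binding site. Only exact matches were counted, so a variant of an element, the ER stress element included, would be missed.

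The 60 bases around each match are given 5′ to 3′ on the strand of the gene, with the matched letters in capitals. They show that Atf3, Chac1 and Nupr1 hold the same 8 letters and that Trib3 differs within the element at the free base.
Trib3 (chr2:152344013-152344072, minus strand): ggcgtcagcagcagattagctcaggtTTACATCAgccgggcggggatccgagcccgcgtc
Chac1 (chr2:119351023-119351082, plus strand): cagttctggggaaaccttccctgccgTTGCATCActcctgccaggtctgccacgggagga
Atf3 (chr1:191183410-191183469, minus strand): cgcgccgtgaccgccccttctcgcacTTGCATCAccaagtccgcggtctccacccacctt
Nupr1 (chr7:126625547-126625606, minus strand): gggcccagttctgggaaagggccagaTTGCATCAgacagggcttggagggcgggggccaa
Ppp1r15a (chr7:45526247-45526306, minus strand): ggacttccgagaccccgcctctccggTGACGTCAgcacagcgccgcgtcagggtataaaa

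The match began 110 bases upstream of the RefSeq start site in both Atf3 and Nupr1, 193 bases upstream in Chac1, 12 bases upstream in Ppp1r15a, and at base 15 after the start site in Trib3. The windows of Sesn2, Atf4, Atf5, Ddit3 and Gdf15 held no exact match of the 4 elements as searched. Variants with a changed letter and bases outside the windows were not searched. These genes, Ddit3 among them, are therefore not shown to lack a working element, exact or variant. Sesn2, the 1 gene of the group that was lower in XKO, is shown with its whole window of 300 bases, all in lower case because nothing in it matched.
Sesn2 (chr4:132510407-132510706, minus strand): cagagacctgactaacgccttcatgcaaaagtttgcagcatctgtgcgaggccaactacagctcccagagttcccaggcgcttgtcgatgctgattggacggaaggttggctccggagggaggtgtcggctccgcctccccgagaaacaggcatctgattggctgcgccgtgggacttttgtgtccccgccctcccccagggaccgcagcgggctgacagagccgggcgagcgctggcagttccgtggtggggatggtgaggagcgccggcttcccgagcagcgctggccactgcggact

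The libraries held 28354866 to 30891729 counts. Xbp1 itself stood at 76.8, 79.4 and 76.5 CPM (counts relative to library size, scaled between libraries by TMM, the trimmed mean of M-values) in XKO 1 to 3, against 159, 157 and 132 CPM in XWT 1 to 3, a 1.92-fold lower level in XKO that counts reads of the whole gene. The deleted part was not measured on its own, so its loss rests on the label. Of 10 macrophage markers, 9 were not called and Lyz2, a lysozyme gene, was 2.18-fold lower. Lyz2 stood at 14274 ± 583 CPM in XKO and 31140 ± 3553 CPM in XWT (SD, n = 3 each). Adgre1, not called, stood at 5750 ± 216 CPM in XKO and 6614 ± 328 CPM in XWT (SD, n = 3 each). Libraries of XWT differed more from each other (chi-square per gene 20.6 to 23.6) than those of XKO (2.91 to 4.82), and XWT 3 stood nearest to XKO on the leading principal component. All 11 tested stromal markers of 14 were lower in XKO, at a summed 69.9 to 85.4 CPM in XKO and 771 to 862 CPM in XWT, with Col1a1 and Col1a2 the most abundant. Of 10 tested neutrophil markers of 14, 7 were higher in XKO. All 14 summed to 172 to 177 CPM in XKO and 139 to 159 CPM in XWT, with Ly6g at 0 in every library. Most of that sum was Csf3r, which was not called, at 111 ± 2.32 CPM in XKO and 115 ± 5.94 CPM in XWT (SD, n = 3 each). Lcn2, the next most abundant, was higher, at 25.7 ± 2.43 CPM in XKO and 13.4 ± 3.07 CPM in XWT. Of 8 hepatocyte markers 7, among them Alb, were at 0 in every library, and Apoa2 was the only one with counts. Summed T and B cell markers stood at 2.35 to 2.64 CPM in XKO and 4.08 to 4.51 CPM in XWT, mostly Cd4, which was lower in XKO, with Cd79a second over all 6 libraries. Dendritic cell markers, of which Xcr1 and Zbtb46 were the most abundant over all 6 libraries, stood at 1.53 to 2.61 CPM in XKO and 1.38 to 1.86 CPM in XWT, with 0 of 3 tested called.

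Of the 10 regulators, 7 were higher in XKO, 1 was lower and 2 were not called. A call required a Benjamini-Hochberg adjusted p below 0.05 over 14333 genes in the quasi-likelihood test of edgeR. The 7 that rose were Trib3, Chac1, Gdf15, Ddit3, Atf4, Ppp1r15a and Atf5, the 1 that fell was Sesn2, and Atf3 and Nupr1 did not pass. In the background of all tested genes, 6.00% were called higher and 7.99% lower. The median log2 fold change of the 10 was 0.32, beside 0.00 over all tested genes. For 9 of the 10, every XKO library lay on the same side of every XWT library, 8 of them higher and 1 lower in XKO, beside 17.5% of tested genes with all XKO libraries higher and 18.6% with all XKO libraries lower. With library size alone as the scaling, 8 of the 10 were higher, Atf3 being added, and 1 lower, and over all genes 60.7% of calls were higher, against 42.9% with TMM. Leaving out XKO 1, XKO 2 or XKO 3 reduced the 7 to 4, and leaving out XWT 2 reduced it to 5, while the 1 became 0 without XKO 1, XKO 2, XKO 3 or XWT 2. Without XWT 3, the library that stood apart in its group, 7 were higher and 1 lower. In bulk RNA, a different number of cells of a type and a different amount of RNA per cell cannot be told apart, and the part of the stromal and neutrophil markers in these results was not tested.

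**Figure D1:**
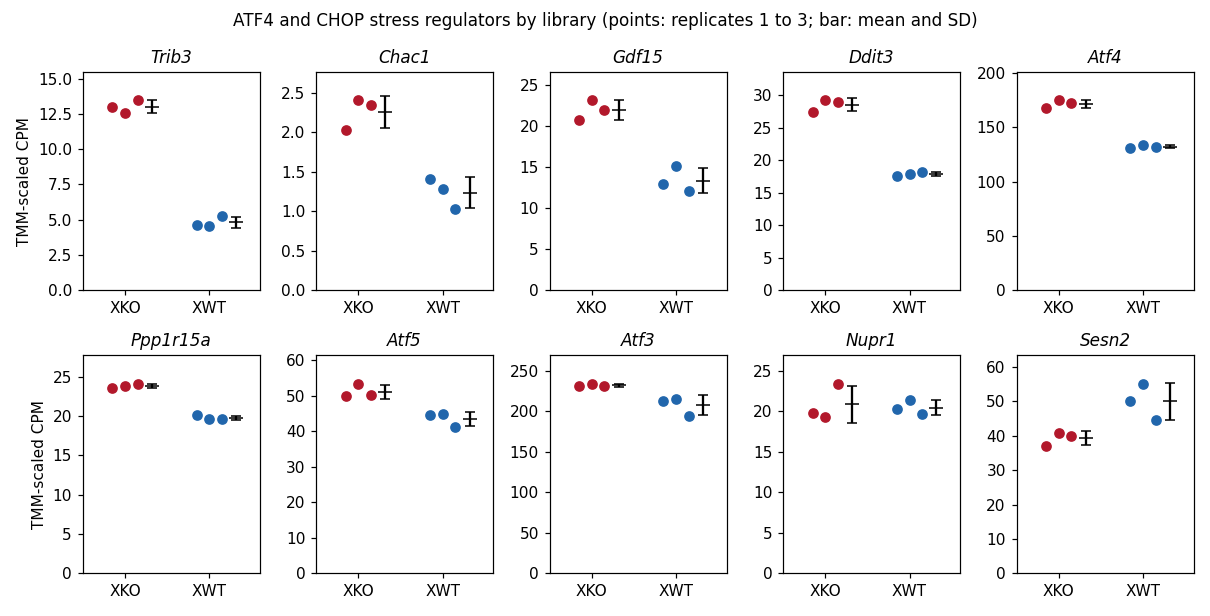
TMM-scaled CPM of the 10 regulators (y axes from 0) in the 3 XKO libraries (red, left) and the 3 XWT libraries (blue, right), ordered by fold change, with the mean and SD as a bar. The groups are apart in every panel but that of Nupr1, and Sesn2 is the only gene with XKO below XWT.

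Atf3, Atf4 and Atf5, genes of ATF transcription factors, were the most abundant of the regulators. Per length, in FPKM as the authors deposited them, Atf3 led in both groups with 107 ± 0.913 in XKO and 96.3 ± 6.12 in XWT, followed by Atf4 with 72.3 ± 1.5 in XKO and 55.9 ± 0.701 in XWT (SD, n = 3 each). Atf5 came next with 25.5 ± 0.980 FPKM in XKO and 21.8 ± 1.08 FPKM in XWT. Chac1 had the lowest level, 1.37 ± 0.123 FPKM in XKO and 0.755 ± 0.123 FPKM in XWT (SD, n = 3 each), with Trib3 next above it at 6.08 ± 0.210 FPKM in XKO and 2.25 ± 0.172 FPKM in XWT. Between these, the order differed by group. In XKO it ran Ddit3 (16.6 FPKM), Gdf15 (11.8), Sesn2 (11.3), Nupr1 (8.26) and Ppp1r15a (8.06), with overlapping libraries between Gdf15 and Sesn2 and between Nupr1 and Ppp1r15a. In XWT it ran Sesn2 (14.4 FPKM), Ddit3 (10.4), Nupr1 (8.13), Gdf15 (7.19) and Ppp1r15a (6.71), with overlapping libraries between Nupr1 and Gdf15 and between Gdf15 and Ppp1r15a. All other neighbours in each order were separate in every library.

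Atf4 (ENSMUSG00000042406, chromosome 15 from 80255184 to 80257541, plus strand), which encodes the master factor of the response, was moderately higher in XKO. It had 168, 175 and 172 CPM in XKO 1 to 3, against 131, 133 and 132 CPM in XWT 1 to 3. The groups were far apart relative to the spread within them, and the 3 XWT libraries lay within 3 CPM of each other. The log2 fold change of XKO over XWT was 0.38 ± 0.060 (standard error, edgeR adjusted p = 0.000955).

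Ddit3 (ENSMUSG00000025408, chromosome 10 from 127290774 to 127296288, plus strand), the CHOP gene, rose more than Atf4 in fold. Its levels were 27.4, 29.2 and 29.0 CPM in XKO 1 to 3, against 17.6, 17.8 and 18.2 CPM in XWT 1 to 3. No XKO library came near the XWT range. The log2 fold change was 0.67 ± 0.079 (standard error, edgeR adjusted p = 7.01e-05). Ddit3 overlaps the tRNA synthetase gene Mars on the opposite strand by 68 bases, and the strand setting of the counting is not given, so reads of that stretch cannot be assigned.

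Atf5 and Atf3, both transcription factor genes of the same family as ATF4, had the smallest differences after Nupr1 with TMM scaling. Atf5 (ENSMUSG00000038539, chromosome 7 from 44812256 to 44816658, minus strand) stood at 49.9, 53.4 and 50.1 CPM in XKO 1 to 3, against 44.4, 44.7 and 41.3 CPM in XWT 1 to 3. Its libraries were separate but close, and the log2 fold change of 0.23 (standard error 0.070, edgeR adjusted p = 0.0417) was the smallest among the called regulators. With trends of gene length and GC content removed it was 0.39 (edgeR adjusted p = 0.00376), above the 0.37 of Ppp1r15a in the same fit. The call of Atf5 ended without XKO 1 (edgeR adjusted p = 0.124), XKO 2 (0.220), XKO 3 (0.122) or XWT 1 (0.0533), and it was also not called by DESeq2 (0.0547). Atf5 overlaps the nucleoporin gene Nup62 on the opposite strand by 571 bases, and Nup62 had 16021 counts over the 6 libraries beside 8535 for Atf5, so with an unknown strand setting its value is uncertain. Atf3 (ENSMUSG00000026628, chromosome 1 from 191170296 to 191218039, minus strand), which is induced by many kinds of stress and by LPS, had 231, 234 and 231 CPM in XKO 1 to 3, against 213, 216 and 194 CPM in XWT 1 to 3. The groups did not overlap, but the spread within XWT was wide beside the difference, and Atf3 did not pass the test (log2 fold change 0.16, standard error 0.065, edgeR adjusted p = 0.116). With library size alone it did (log2 fold change 0.23, edgeR adjusted p = 0.0176).

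**Figure D2:**
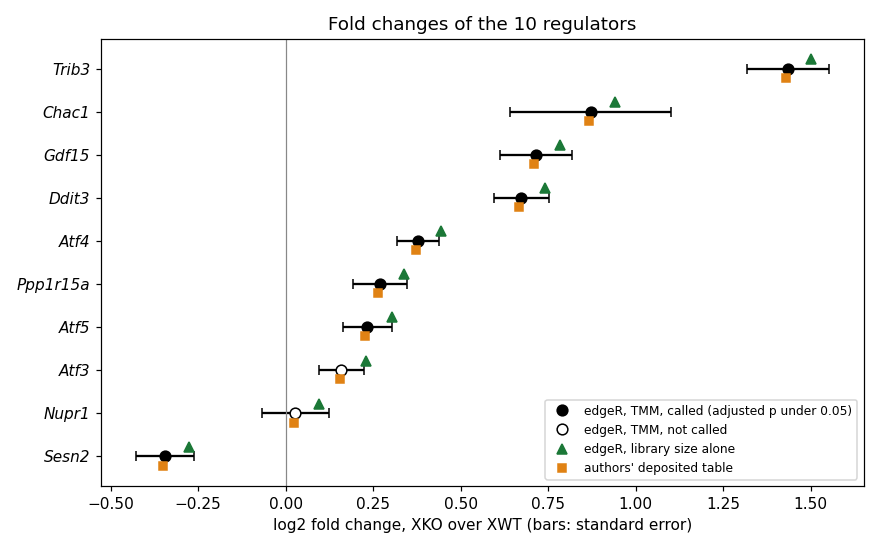
Log2 fold change of XKO over XWT (x axis) for each regulator (rows), from edgeR with TMM scaling (circles, filled where called, bars for the standard error), edgeR with library size alone (triangles) and the authors' deposited table (squares). Values run from 1.43 for Trib3 down to -0.35 for Sesn2 with TMM, and scaling by library size alone lies to the right of TMM in every row.

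Trib3 had the largest fold change of the 10. Trib3 (ENSMUSG00000032715, chromosome 2 from 152337422 to 152344032, minus strand) encodes a pseudokinase that is induced by ATF4 and CHOP and is known to restrain their activity. It had 13.0, 12.6 and 13.5 CPM in XKO 1 to 3, against 4.64, 4.51 and 5.25 CPM in XWT 1 to 3. Every XKO library was above 12 CPM and every XWT library below 6. The difference of 1.43 on the log2 scale (standard error 0.117, edgeR adjusted p = 1.91e-06) is a 2.70-fold higher level, and placed Trib3 at rank 63 of 14333 genes by fold change.

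Chac1 (ENSMUSG00000027313, chromosome 2 from 119351229 to 119354381, plus strand), which encodes an enzyme that degrades glutathione, rested on few reads. It had 63, 74 and 72 counts in XKO 1 to 3, against 38, 38 and 32 counts in XWT 1 to 3. The groups did not overlap, and the log2 fold change was 0.87 ± 0.230 (standard error, edgeR adjusted p = 0.0241), the widest error among the 10. The call ended without XKO 1 (edgeR adjusted p = 0.0608), XKO 2 (0.115), XKO 3 (0.0995) or XWT 2 (0.0572), and with limma-voom quality weights (0.0694).

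Ppp1r15a and Sesn2 encode brakes on stress and growth signalling, and they moved in opposite directions. Ppp1r15a (ENSMUSG00000040435, chromosome 7 from 45522916 to 45526268, minus strand) encodes the phosphatase subunit that reverses eIF2 phosphorylation. It stood at 23.5, 23.8 and 24.1 CPM in XKO 1 to 3, against 20.1, 19.6 and 19.6 CPM in XWT 1 to 3. The spread within each group was under 1 CPM, and the log2 fold change was 0.27 ± 0.078 (standard error, edgeR adjusted p = 0.0368). The call ended without XKO 1 (edgeR adjusted p = 0.129), XKO 2 (0.151), XKO 3 (0.142) or XWT 2 (0.0607). It also ended with no filter on low counts (edgeR adjusted p = 0.0597), with limma-voom quality weights (0.0560) and by DESeq2 (0.0623).

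Sesn2 (ENSMUSG00000028893, chromosome 4 from 132492032 to 132510501, minus strand) encodes sestrin 2, which restrains the growth kinase complex mTORC1 when leucine is short. It had 37.2, 40.8 and 40.0 CPM in XKO 1 to 3, against 50.1, 55.2 and 44.7 CPM in XWT 1 to 3. The XWT libraries were the more spread, with XWT 3 nearest to XKO. Sesn2 fell by 0.35 on the log2 scale (standard error 0.084, edgeR adjusted p = 0.0166). The call ended without XKO 1 (edgeR adjusted p = 0.0976), XKO 2 (0.0573), XKO 3 (0.0688) or XWT 2 (0.0554) and with trends of gene length and GC content removed (log2 fold change -0.20, edgeR adjusted p = 0.106). The related genes Sesn1 and Sesn3, which encode the other sestrins, were lower as well. Sesn1 stood at 226, 223 and 241 CPM in XKO 1 to 3, against 310, 318 and 297 CPM in XWT 1 to 3 (log2 fold change -0.42, edgeR adjusted p = 0.000677). Sesn3 stood at 11.4, 9.63 and 10.8 CPM in XKO 1 to 3, against 18.6, 16.1 and 16.7 CPM in XWT 1 to 3 (log2 fold change -0.69, edgeR adjusted p = 0.000677).

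Gdf15 was higher in XKO, and Nupr1 was not called. Gdf15 (ENSMUSG00000038508, chromosome 8 from 70629393 to 70632456, minus strand) encodes a secreted stress cytokine. It had 20.7, 23.1 and 21.9 CPM in XKO 1 to 3, against 13.0, 15.1 and 12.0 CPM in XWT 1 to 3. All XKO libraries were above all XWT libraries, with a log2 fold change of 0.72 (standard error 0.102, edgeR adjusted p = 0.000393). Nupr1 (ENSMUSG00000030717, chromosome 7 from 126623249 to 126630861, minus strand), which encodes a small stress-induced chromatin protein, was the 1 gene whose groups overlapped. It had 19.8, 19.4 and 23.4 CPM in XKO 1 to 3, against 20.3, 21.5 and 19.7 CPM in XWT 1 to 3. XKO 3 was the highest library and XKO 2 the lowest, and the log2 fold change was 0.03 ± 0.095 (standard error, edgeR adjusted p = 0.872).

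The calls of Trib3, Ddit3, Gdf15 and Atf4 held under all 18 alternatives run. Over these, the log2 fold change ranged from 1.39 to 1.57 for Trib3, from 0.65 to 0.74 for Ddit3, from 0.64 to 0.88 for Gdf15 and from 0.36 to 0.46 for Atf4. The authors' deposited table gives 5 of the 10 as higher and 1 as lower at an adjusted p under 0.05. In the authors' deposited table Ppp1r15a (adjusted p = 0.0626) and Atf5 (0.0550) did not reach that threshold, and the log2 fold changes of the 10 lay within 0.006 of those of edgeR. DESeq2, run here on the deposited counts, gave nearly the same values (adjusted p = 0.0623 for Ppp1r15a and 0.0547 for Atf5). The deposited values are therefore not separate from that DESeq2 result.

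**Figure D3:**
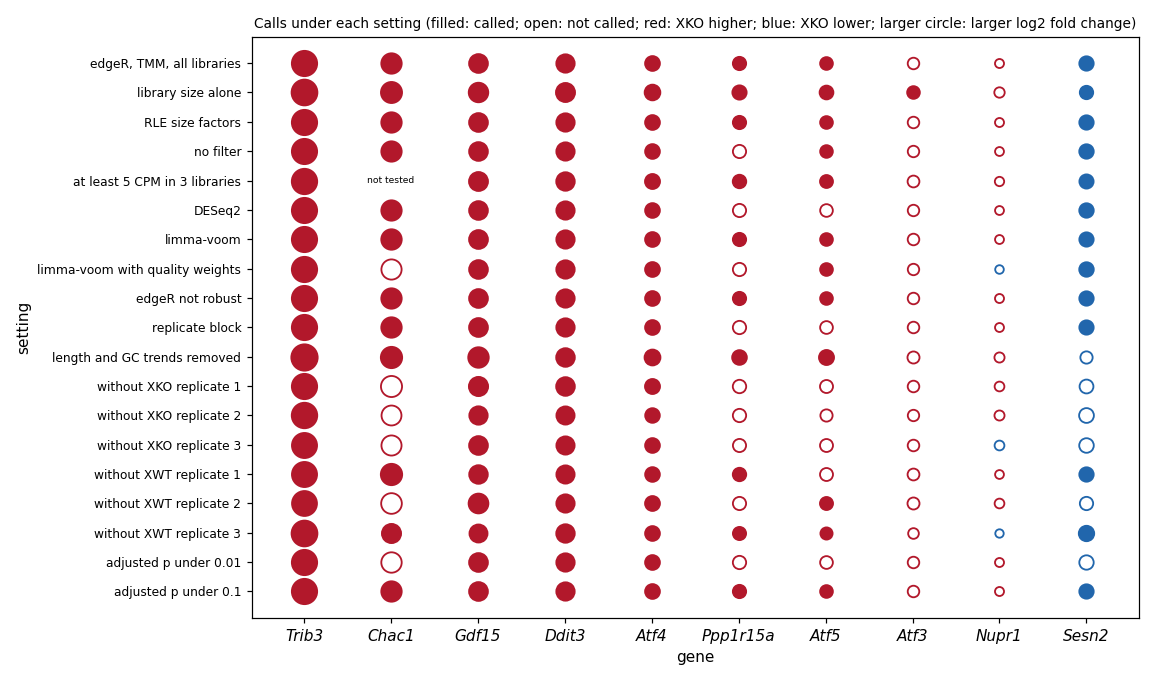
Direction and call of each regulator (columns) under each setting (rows), with filled circles where the adjusted p was under the threshold and larger circles for larger log2 fold changes. Trib3, Gdf15, Ddit3 and Atf4 are filled throughout, and Chac1, Ppp1r15a, Atf5 and Sesn2 lose their call in several rows, among them each row without an XKO library.

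Counts can be compared within a library without any scaling, and the regulators were set against Atf4. Atf4 itself was 1.30-fold higher in XKO, so a gene whose fold was below that of Atf4 has a smaller share in XKO even where its own level was higher or not called. In the same library Trib3 had 7.75%, 7.18% and 7.82% of the Atf4 count in XKO 1 to 3, against 3.55%, 3.38% and 3.98% in XWT 1 to 3. Sesn2 had 22.2%, 23.4% and 23.3% of the Atf4 count in XKO 1 to 3, against 38.3%, 41.4% and 33.8% in XWT 1 to 3. The share of Trib3 was thus larger in every XKO library and that of Sesn2 smaller. Chac1, Gdf15 and Ddit3 also had larger shares in all 3 XKO libraries, at 1.40, 1.26 and 1.23 times the mean XWT share. Nupr1, Atf3, Atf5 and Ppp1r15a had smaller shares in all 3, at 0.785, 0.860, 0.905 and 0.928 times the mean XWT share. Each of the 9 differences had a two-sided exact permutation p of 0.1, the smallest that 3 libraries against 3 can give. Atf4 ranked 1723 of 14333 tested genes by fold change, so most tested genes had a fold below that of Atf4. How many tested genes separate by their share of Atf4 was not computed, so the separation is not shown to be particular to the regulators.

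**Figure D4:**
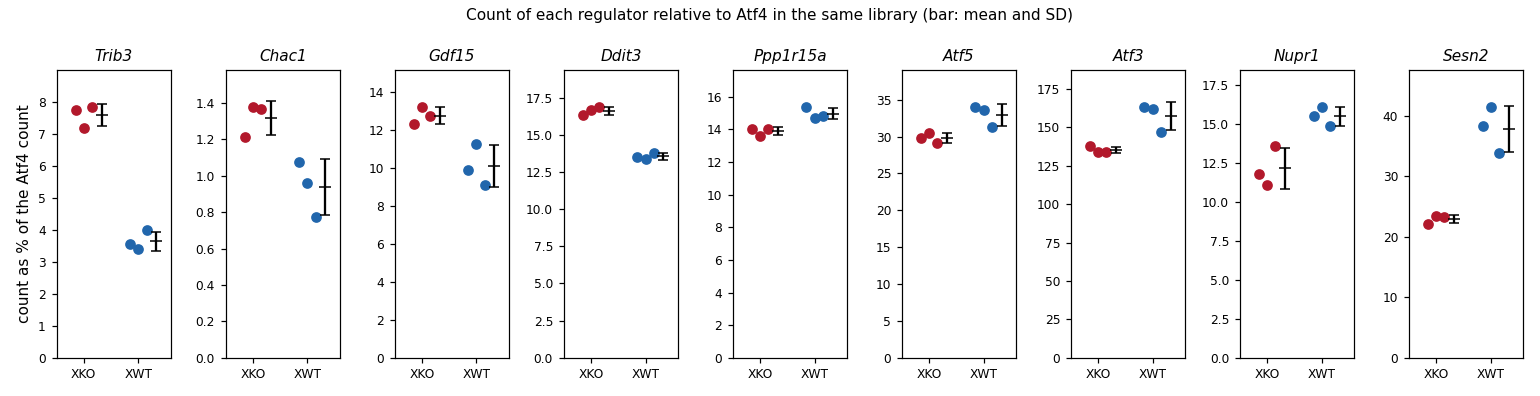
Count of each regulator as a percentage of the Atf4 count in the same library (y axes from 0), in the 3 XKO libraries (red, left) and 3 XWT libraries (blue, right), with mean and SD. Trib3, Chac1, Gdf15 and Ddit3 have higher shares in XKO, the other 5 lower ones.

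Upstream of Atf4, genes of the eIF2 kinases, the eIF2 and eIF2B subunits and related regulators were mostly not called, like most tested genes. Of 16 tested, 2 were higher, 1 was lower and 13 were not called, with a median log2 fold change of 0.01. Over all tested genes 6.00% were called higher and 7.99% lower, the background for this list and those below. Impact, which encodes an inhibitor of the amino acid sensor kinase GCN2, rose by 0.42 on the log2 scale (edgeR adjusted p = 0.0162), and Eif2ak2, the gene of the kinase PKR that senses double-stranded RNA, by 0.31 (0.0219). Eif2ak3, the gene of PERK, stood at 34.9, 32.3 and 31.9 CPM in XKO 1 to 3, against 42.4, 40.0 and 37.0 CPM in XWT 1 to 3. Its groups did not overlap, and it fell by 0.27 (edgeR adjusted p = 0.0363). The call of Eif2ak3 was lost with library size alone and when any single library other than XWT 3 was left out, and 2 genes of the list were lower without XWT 3. The 2 higher genes became 1 without XKO 1, XWT 1 or XWT 2, and 0 without XKO 2 or XKO 3.

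Downstream, genes of amino acid enzymes and transporters that ATF4 is known to induce gave 7 higher and 2 lower calls among 17 tested, with a median log2 fold change of 0.21. Without XKO 1, XKO 2 or XKO 3 the 7 became 4, and the 2 became 1 when any single library other than XWT 1 was left out. The cystine transporter gene Slc7a11 had 96.2, 99.8 and 95.1 CPM in XKO 1 to 3, against 42.3, 31.9 and 46.6 CPM in XWT 1 to 3. It rose by 1.27 on the log2 scale (edgeR adjusted p = 1.39e-05). The glycine transporter gene Slc6a9 rose by 0.87 and the cationic amino acid transporter gene Slc7a1 by 0.44. Pycr1, which encodes an enzyme of proline synthesis, fell by 1.36, to 0.703 ± 0.102 CPM in XKO against 1.81 ± 0.103 CPM in XWT (SD, n = 3 each). Asns, the asparagine synthetase gene and a classic ATF4 target that was named after its values were seen, rose by 0.40 (edgeR adjusted p = 0.0130). The other 8 tested genes of the list were not called. Among them were Phgdh (log2 fold change 0.256), Psat1 (-0.045), Psph (-0.006) and Shmt2 (0.013). Slc1a4 was the further lower call, at -0.753. These genes were also named after their values were seen. Of 20 tested cytosolic tRNA synthetase genes, 2 were higher, 1 lower and 17 were not called, with a median of 0.07. Over all tested genes the shares were 6.00% higher and 7.99% lower. Eprs rose by 0.37 and Aars by 0.24, while Qars fell by 0.25. The 2 became 1 when any single XKO library was left out. The call of Qars ended when any single library other than XWT 3 was left out, with library size alone, and with length and GC trends removed, and 2 genes of the list were lower without XWT 3.

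**Figure D5:**
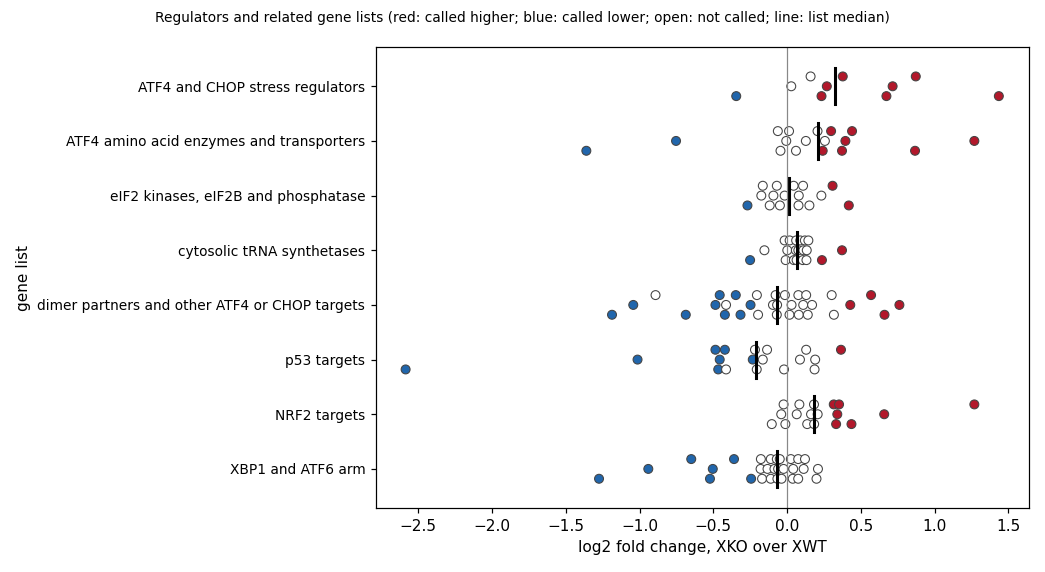
Log2 fold change of XKO over XWT (x axis) of each tested gene in the 10 regulators and 7 related lists (rows), red where called higher, blue where called lower and open where not called, with a black line at the list median. The regulators and the amino acid genes have medians of 0.32 and 0.21, and the p53 targets one of -0.21.

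Among dimer partners of the ATF4 and CHOP proteins and other reported targets, 4 were higher, 9 lower and 19 not called of 32 tested, with a median log2 fold change of -0.07. Sqstm1, which encodes the autophagy receptor p62, rose by 0.57 on the log2 scale, to 1527 ± 7.59 CPM in XKO against 1030 ± 28.4 CPM in XWT (SD, n = 3 each). Sesn1, Sesn3 and the cell cycle inhibitor gene Cdkn1a were the falls with the smallest p, Cdkn1a with a log2 fold change of -0.49 (edgeR adjusted p = 0.000317). Ddit4, the gene of an inhibitor of mTORC1 signalling, fell by 1.04, to 3.15 ± 0.59 CPM in XKO against 6.48 ± 2.20 CPM in XWT. Vldlr, a lipoprotein receptor gene, fell by 1.19, to 1.61 ± 0.41 CPM in XKO against 3.68 ± 0.44 CPM in XWT (SD, n = 3 each). Both are reported ATF4 targets. The higher calls besides Sqstm1 were Egln3 (log2 fold change 0.761), Vegfa (0.660) and Ero1l (0.428). Ddit4, Vldlr, Egln3, Vegfa and Ero1l were named after their values were seen. The 9 became 5 without XKO 1 and 4 without XKO 3, and the 4 became 2 without XKO 2.

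Several of the regulators are also known to respond to p53 or to the antioxidant factor NRF2, Sesn2 to both. Of 18 tested p53 target genes, 1 was higher, 7 were lower and 10 were not called, with a median log2 fold change of -0.21. Phlda3, which encodes a repressor of the kinase AKT, fell by 1.01 on the log2 scale and the RNA-binding protein gene Zmat3 by 0.47, beside Cdkn1a and Sesn1, which the list shares with the one before. Of 18 tested NRF2 target genes, 7 were higher and 0 lower, with a median of 0.18. Besides Slc7a11, which is also an ATF4 target, Nqo1 (a quinone reductase) rose by 0.66, Gsr (glutathione reductase) by 0.44 and Txnrd1 (thioredoxin reductase) by 0.32. Without XKO 2 the 7 became 4, and without XWT 3 the 0 became 1, as the 1 higher p53 target became 2. Among 29 tested genes of the XBP1 and ATF6 branches, 0 were higher, 7 lower and 22 not called, with a median of -0.07. Herpud1, of ER-associated degradation, fell by 0.65, the translocon-associated gene Serp1 by 0.52 and the disulfide isomerase gene Pdia5 by 1.27, beside Xbp1 itself. The 0 became 3 with library size alone, and 1 without XWT 1 or XWT 3.

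Nearness over the 6 libraries was taken as the root mean square difference in centred log2 CPM, with predicted genes and pseudogenes left out. Among the remaining tested genes, those nearest to Atf4 included Ptger2 (0.030), Gsr (0.040), Cisd2 (0.041) and Pde8b (0.041). Those nearest to Ddit3 were Penk (0.043), Cd274 (0.053), Clmp (0.056), Tnf (0.057) and Ctsk (0.065). The 6 libraries fall in 2 groups, and the log2 fold changes of these genes ran from 0.37 to 0.44 for the Atf4 set and from 0.55 to 0.76 for the Ddit3 set.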

How the data were processed

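A single deposited table was used. The authors gave raw read counts for each Ensembl gene in each library, per the file headers. Its FPKM columns were deposited by the authors per length and per depth, and were used only to order levels between genes. The authors also deposited scaled group means, a signal that was not used here, and a log2 fold change, p-value and adjusted p-value of XKO over XWT by an unnamed tool. Per the submitters' processing notes, Bowtie 0.12.2 and the builds mm8 and mm10 were used, with no role stated. No counter or strand setting is given in the sources used here. Coordinates are those of the table, identical for all 11 rows in GENCODE M21 (GRCm38).

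Counts were tested with edgeR 4.0.16 in R 4.3.3 (filterByExpr, 14333 genes kept; TMM; robust quasi-likelihood fit of XKO against XWT; 4 residual degrees of freedom; Benjamini-Hochberg adjustment over all tested genes). Standard errors are the log2 fold change over the root of F. Depth was 28354866 to 30891729 counts, and the common biological coefficient of variation 0.0865. Scripts were tested on simulated data. Shares of the Atf4 count within a library, compared by exact permutation, were added after the data were seen. Promoter windows come from RefSeq (GRCm38.p6). The regulators, the 7 related lists and 6 marker lists were chosen with earlier results of these data known. The rule for named genes takes the regulators and Xbp1, up to 4 called genes per related list with the smallest p, the 2 most abundant genes per marker list, and the 5 genes nearest to Atf4 and to Ddit3. Predicted genes and pseudogenes were left out of the search for nearest genes. One of the genes nearest to Atf4 is not reported here. Alternatives were other scalings and filters, DESeq2 1.42.0, limma-voom (limma 3.58.1) with and without quality weights, a non-robust fit, a replicate block, each library left out, length and GC trends removed, and thresholds of 0.01 and 0.1.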

Additional observations from a re-analysis of the deposited data

How the results depend on the processing

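Trib3, Ddit3, Gdf15 and Atf4 kept direction and call under all 18 alternatives. The 7 higher regulators became 4 at an adjusted p under 0.01 and 4 to 7 with 1 library left out, 5 with DESeq2 and with quality weights, 6 with no filter and with at least 5 CPM (where Chac1 was not tested), and 8 with library size alone. The 1 lower became 0 with length and GC trends removed and at 0.01, and 0 to 1 with 1 library left out. Nupr1, never called, had a log2 fold change of -0.010 with quality weights, -0.002 without XWT 3, and -0.065 to 0.079 over all single omissions. By TMM-scaled CPM in place of FPKM, 4 regulators took another place in the order of levels.

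Over all genes, 860 higher became 1446 with length and GC trends removed, 262 at 0.01, 1452 at 0.1 and 274 to 2073 with 1 library left out. The 1145 lower became 749 with library size alone, 730 with at least 5 CPM in 3 libraries, 544 at 0.01 and 532 to 2164 with 1 library left out. Calls were 42.9% higher with TMM, 60.7% with library size alone (1158 higher, 749 lower) and 58.3% with length and GC trends removed (1446 higher, 1036 lower). The causes were not tested.

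For amino acid genes, higher became 4 at 0.01 and 4 to 8 with 1 library left out. Lower became 1 with library size alone, DESeq2, limma-voom, quality weights, the non-robust fit and 0.01, 0 with at least 5 CPM, and 1 to 2 with 1 library left out. For NRF2 targets, omissions gave 4 to 10 higher and 0 to 1 lower. For XBP1 and ATF6 genes, higher became 3 with library size alone, 2 with quality weights, 1 with length and GC trends removed, 2 at 0.1 and 0 to 1 by omission. For tRNA synthetases, higher became 4 with length and GC trends removed, 1 at 0.01 and 1 to 2 by omission, and lower became 0 with library size alone, with those trends removed and at 0.01, and 0 to 2 by omission. For dimer partners and other targets, lower became 4 at 0.01 and 4 to 9 by omission, and higher 2 to 5 by omission. For eIF2 genes, higher became 4 with trends removed, 0 at 0.01 and 0 to 3 by omission, and lower 0 with library size alone and at 0.01, and 0 to 2 by omission. For p53 targets, higher became 2 with library size alone, quality weights, trends removed and 0.1, and 1 to 2 by omission.

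No sign was seen that replicate numbers pair the samples. Correlations of deviations were -0.036 to -0.054 for same-numbered libraries and 0 to 0.041 for differently numbered ones. Values this small cannot show whether the samples were paired. With the replicate number as a block, 5 regulators were higher and 1 lower, the calls of Atf5 (edgeR adjusted p = 0.0539) and Ppp1r15a (0.0627) being lost. Chac1 had 317 counts over the 6 libraries, the fewest of the 10.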
